A study of Homo sapiens with 12 samples.

Results

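Histone deacetylases take acetyl groups off histone tails and other proteins, and most of the nuclear ones work inside multi-subunit co-repressor complexes. The genes described here are these enzymes and complexes, 44 genes of the 60668 in the count table. They were chosen by gene symbol and function, with earlier results of these data known but no measured value in the rule. By role they fall into 4 class I deacetylases, 4 class IIa deacetylases, 3 deacetylases of classes IIb and IV, 7 sirtuins, 9 subunits of NuRD, 2 histone chaperones that NuRD and SIN3 share, 10 subunits of SIN3, 4 subunits of CoREST and NCOR1.

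RNA-seq was run on 12 libraries of 2 established human cancer cell lines, with 3 biological replicates in each of 4 groups. The groups were H1299 lung adenocarcinoma cells with HDAC2 knockdown (shHDAC2), H1299 cells with shControl, PANC-1 pancreatic adenocarcinoma cells with FOSL1 knockdown (shFOSL1) and PANC-1 cells with shControl. The shControl cells are labelled WT and carry a scrambled shRNA, so all 4 groups carry an shRNA, and they are called scramble cells here. The methods describe viral delivery of pLKO.1 shRNA vectors, puromycin selection of the infected cells, and growth in DMEM with serum for both lines. They describe cloning for FOSL1 alone, and do not say whether the replicates of a group were infected separately, so p-values measure the spread between these libraries, which may be that of cultures of a single infected population.

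As background, class I enzymes (HDAC1, HDAC2, HDAC3 and HDAC8) are zinc-dependent and mostly nuclear, and HDAC1 and HDAC2 form the shared catalytic core of NuRD, SIN3 and CoREST, while HDAC3 works with NCOR. Class IIa enzymes shuttle between nucleus and cytoplasm and bind MEF2 transcription factors, and sirtuins use NAD for catalysis where the other classes use zinc. FOSL1 encodes FRA1, a subunit of the transcription factor AP-1, which is not itself a member of any of these complexes.

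Total counts ranged from 16065723 to 19173421 per library, and the 44 genes together took 0.335 to 0.363% of them. Every gene was detected in all 12 libraries, from SIRT4, with 16 to 39 counts, and HDAC10, with 30 to 102 counts, to genes such as MTA1, with 3959 to 4966 counts. Scramble replicate 1 stood apart in both lines. The chi-square per degree of freedom between its counts and those of the other 2 scramble libraries was 6.79 and 7.62 in H1299 and 7.82 and 10.6 in PANC-1, against 3.86 in H1299 and 3.22 in PANC-1 between those 2, so counts of called genes are also given without it. Mitochondrially encoded genes took 12.6 to 13.3% of counts in shFOSL1 libraries and 6.99 to 7.29% in PANC-1 scramble libraries. In H1299 these shares were 11.3 to 12.5% with shHDAC2 and 11.8 to 13.0% with scramble. With mitochondrially encoded genes and the 20 most abundant genes left out of the fit, all 44 genes kept their calls in each knockdown. Any other part of them in the results was not tested. Of 6 epithelial markers, EPCAM, CDH1 and KRT19 averaged 34.8, 36.3 and 316 CPM in PANC-1 scramble cells and 0.672, 0.128 and 0.159 CPM in H1299 scramble cells. The other 3 were present in both lines, with KRT8 at 1412 CPM in PANC-1 and 280.3 CPM in H1299 scramble cells, KRT18 at 481 and 284 CPM and KRT7 at 2.87 and 3.84 CPM. Of 4 lung lineage markers, NKX2-1 averaged 2.48 CPM and NAPSA 0.860 CPM in H1299 scramble cells, and SFTPB and SFTPC had at most 4 counts in any library. The 5 acinar pancreas markers had at most 5 counts. Of the pancreas duct markers, SOX9 averaged 252 CPM in PANC-1 and 158 CPM in H1299 scramble cells, and MUC1 16.7 and 6.61 CPM. CFTR had at most 10 counts in any library, and KRT19 is given above. Mesenchymal markers were present in both lines, with VIM at 1949 CPM in PANC-1 and 1212 CPM in H1299 scramble cells. CDH2 averaged 31.8 and 37.25 CPM in these cells, and FN1 15.2 and 452 CPM. Of 4 immune markers, PTPRC, CD3E and CD68 had at most 9 counts and CD14 averaged 2.22 CPM in shFOSL1 cells and 3.36 CPM in PANC-1 scramble cells. Of 3 endothelial markers, CLDN5 and VWF had at most 11 counts and PECAM1 up to 49, in H1299. Of 3 fibroblast markers, COL1A1 averaged 78.3 CPM in shFOSL1 cells and 249 CPM in PANC-1 scramble cells, while COL1A2 and DCN had at most 12 counts in any library. The part of these markers in the results was not tested. CPM values are counts scaled to a common library size, with TMM factors (trimmed mean of M-values), and each value below comes from bulk RNA, in which fewer cells and less RNA per cell cannot be told apart.

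HDAC2 knockdown in H1299 was compared with scramble to see how the other deacetylases and their complexes stood when HDAC2 mRNA was low. HDAC2 fell, HDAC1 was slightly higher, and 4 of the 44 genes were called higher and 8 lower, with 32 not called. Calls were made with edgeR's quasi-likelihood test where the Benjamini-Hochberg adjusted p, over all 16465 genes tested, was under 0.05. SE below is the standard error of a log2 fold change. Outside class I, most genes given library by library were chosen among called genes without overlap, so their lack of overlap is part of the choice. Over all those genes 10.3% were called higher and 12.1% lower, and over these 44 genes 9.09% and 18.2%, so the share called higher was near that of all genes. The median log2 fold change was -0.002 for the 44 genes and -0.0049 for all genes tested. HDAC2, the targeted gene, is among the 8.

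HDAC2 (ENSG00000196591, chromosome 6 of GRCh38) encodes a class I deacetylase of NuRD, SIN3 and CoREST and is the gene that the shRNA targets. It was at 77.3, 68.5 and 78.4 CPM in shHDAC2 libraries, against 171, 178 and 187 CPM in H1299 scramble libraries. All 3 knockdown libraries lay far below the scramble libraries, in the direction of the label. HDAC2 fell by 1.26 on the log2 scale, which is 58.3% less (edgeR, SE 0.0654, adjusted p = 5.4e-15), and fell by 1.29 without scramble replicate 1.

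HDAC1, the paralog that can take HDAC2's place in the same complexes, was at 239, 226 and 235 CPM in shHDAC2 libraries and at 210, 212 and 197 CPM in H1299 scramble libraries. The groups did not overlap, but the gap was small. The log2 fold change of HDAC1 was 0.17 (edgeR, SE 0.0577, adjusted p = 0.0286), or 12.7% more. The call was lost with upper quartile scaling (adjusted p = 0.0528) and without shHDAC2 replicate 1 (0.148), 2 (0.0577) or 3 (0.11) or scramble replicate 3 (0.13), all from edgeR. HDAC3, the catalytic subunit of NCOR complexes, was at 70.2, 72.2 and 80.0 CPM against 70.1, 62.2 and 66.7 CPM, and its log2 fold change of 0.16 (95% interval 0.02 to 0.30) did not pass the test (adjusted p = 0.098, edgeR). HDAC8, a class I enzyme that acts outside these complexes, was at 11.4, 10.9 and 9.62 CPM against 9.07, 11.9 and 12.2 CPM, with overlapping groups and a log2 fold change of -0.06 (95% interval -0.32 to 0.20).

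HDAC1 and HDAC2 together were at 308 ± 12.02 CPM in shHDAC2 libraries and 385 ± 4.34 CPM in H1299 scramble libraries (SD, n = 3 each). Of the summed CPM of all 4 class I genes, HDAC2 held 18.1 to 19.4% in shHDAC2 libraries and 37.2 to 40.4% in scramble libraries, and HDAC1 held 58.4 to 60.1% and 42.6 to 45.7%. These shares and sums are of counts and not per length, and the annotated transcript of HDAC2 (9737 bases) is longer than that of HDAC1 (2118 bases), so they are not ratios of molecules.

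**Figure D1:**
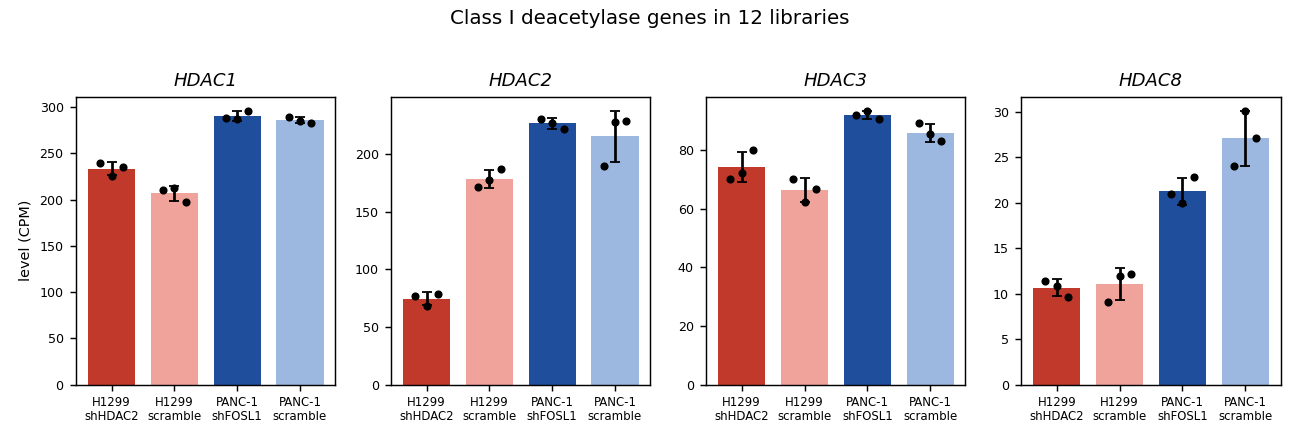
Levels of the 4 class I deacetylase genes in CPM (y axes, starting at 0) in the 4 groups, where points are the 3 libraries, bars are means and error bars are SD. HDAC2 sits between 68.5 and 78.4 CPM in shHDAC2 libraries and between 171 and 187 CPM in H1299 scramble libraries, and HDAC1 is above its H1299 scramble level in all 3 shHDAC2 libraries.

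Outside class I, the deacetylases that changed in HDAC2 knockdown H1299 cells were lower. HDAC6, a cytoplasmic class IIb enzyme that deacetylates tubulin, was at 34.2, 35.7 and 35.2 CPM in shHDAC2 libraries and 52.2, 41.7 and 51.0 CPM in H1299 scramble libraries. Its knockdown libraries were tightly grouped below all scramble libraries, and HDAC6 fell by 0.47 on the log2 scale (edgeR, SE 0.0806, adjusted p = 6.5e-05). HDAC7, a class IIa enzyme, was at 119, 121 and 117 CPM against 159, 137 and 134 CPM and fell by 0.27 (edgeR, SE 0.0643, adjusted p = 0.00233). Its highest scramble library is replicate 1, and it fell by 0.19 without that library. HDAC5, of the same class, had a log2 fold change of -0.21 (adjusted p = 0.0274, edgeR), and HDAC4 (0.23) and HDAC9 (0.13) did not pass. Nor did HDAC11 (-0.24), the class IV enzyme, and HDAC10 (0.14), a polyamine deacetylase of class IIb.

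Of the 7 sirtuins 2 fell, and the other 5 did not pass. SIRT3, the main deacetylase of mitochondrial proteins, was at 12.2, 11.4 and 10.4 CPM in shHDAC2 libraries and 15.3, 15.7 and 12.4 CPM in H1299 scramble libraries. The groups came close at scramble replicate 3 without overlapping, and SIRT3 fell by 0.36 on the log2 scale (edgeR, SE 0.116, adjusted p = 0.0239). SIRT2, a cytoplasmic enzyme, had a log2 fold change of -0.21 (adjusted p = 0.0301, edgeR). Without scramble replicate 1 neither was called (adjusted p = 0.0595 for SIRT3 and 0.0713 for SIRT2, edgeR). SIRT5 had a log2 fold change of -0.24 (adjusted p = 0.0642, edgeR), and those of SIRT1, SIRT4, SIRT6 and SIRT7 ran from -0.13 to 0.12.

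Among the complexes, SIN3, the largest with 10 subunits, held most of the calls, with 3 higher and 1 lower. Over all genes tested 10.3% were called higher and 12.1% lower. Of the SIN3 calls, only that of SAP130 held under all 15 alternatives given below. ING1, a SIN3 subunit that binds methylated histone H3, was at 13.6, 12.9 and 15.3 CPM in shHDAC2 libraries and 10.7, 11.2 and 11.7 CPM in H1299 scramble libraries. The groups did not overlap, and its log2 fold change was 0.31 (edgeR, SE 0.111, adjusted p = 0.0413). ARID4A, a SIN3 subunit that binds the retinoblastoma protein, was at 23.3, 21.5 and 24.6 CPM against 18.04, 20.1 and 19.9 CPM, again without overlap, with a log2 fold change of 0.26 (edgeR, SE 0.0923, adjusted p = 0.043). Its relative ARID4B was called at 0.28 although 1 scramble library (27.8 CPM) lay above 1 knockdown library (27.3 CPM), and 12.9% of its exon bases overlap RBM34 on the same strand. SAP130, a SIN3 scaffold subunit, was at 64.0, 67.8 and 60.1 CPM against 82.0, 76.4 and 79.7 CPM and fell by 0.31 (edgeR, SE 0.0675, adjusted p = 0.000845).

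The other 6 SIN3 subunits were not called, with log2 fold changes from -0.13 for SIN3B to 0.26 for ING2. In NuRD, the nucleosome remodelling and deacetylase complex, 1 of 9 subunits was called. This was MTA3, a scaffold paralog, at 52.8, 47.0 and 55.5 CPM in shHDAC2 libraries and 61.7, 66.6 and 61.4 CPM in H1299 scramble libraries, which fell by 0.29 (edgeR, SE 0.0732, adjusted p = 0.00408). The remaining NuRD subunits ran from -0.13 for CHD4 to 0.13 for MTA1. The 2 histone chaperones, the 4 CoREST subunits and NCOR1 were not called, at log2 fold changes from -0.13 for RCOR1, which had an unadjusted p of 0.0457 in edgeR, to 0.09 for KDM1A.

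These small changes depended on single libraries more than that of HDAC2. Without shHDAC2 replicate 1, or without replicate 3, edgeR lost the calls of all 4 genes that were higher, and without scramble replicate 3 it called 1 higher. It called 4 lower without shHDAC2 replicate 2 and 5 without shHDAC2 replicate 3. HDAC5 lost its call without any 1 of the 3 shHDAC2 libraries or scramble replicate 3, SIRT2 without shHDAC2 replicate 2 or 3 or scramble replicate 3, SIRT3 without shHDAC2 replicate 2 or 3 or scramble replicate 2, and MTA3 without shHDAC2 replicate 2. Without scramble replicate 1, the library that stands apart, 3 were called higher and 7 lower. These 3 were HDAC1 (0.18), HDAC3 (0.20) and MTA1 (0.19), while ING1, ARID4A and ARID4B (0.16) lost their calls, so the SIN3 calls in the higher direction rest on that library too. DESeq2 and the single fit of all 12 libraries also lost these 3. HDAC2, HDAC6, HDAC7 and SAP130 were called under all 15 alternatives to the model, scaling, filter and libraries.

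FOSL1 knockdown in PANC-1 was compared with scramble in the same way, to see whether genes of the deacetylase machinery moved when this AP-1 subunit was targeted. Here 18 of the 44 genes were called higher and 7 lower, and 19 were not called. Over all 16345 genes tested, edgeR called 23.8% higher and 27.1% lower, and over these 44 genes 40.9% and 15.9%. The median log2 fold change was 0.108 for the 44 genes and -0.021 for all genes. Without scramble replicate 1 the counts were 23 higher and 7 lower.

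The shRNA targets listed for PANC-1 cells are shown because none of the 44 genes carries either of them in its transcripts. They were read from the study's table of designed shRNAs, which lists 1 FOSL1 shRNA. The libraries are labelled with an shRNA number 2, so whether it is the listed one is not known, and the HDAC2 shRNA, labelled number 1, was not analysed here. Capitals are not used, since no part is singled out.
FOSL1-shRNA: gagctgcagtggatggtac
Scramble: cgtacgcggaatacttcga
The longest run that either 19-base target shares with a transcript of the 44 genes is 11 bases, in RCOR3 and SIRT3 for the FOSL1 shRNA and in HDAC3 and KDM1A for the scramble. FOSL1 itself was at 178, 167 and 166 CPM in shFOSL1 libraries and 219, 217 and 242 CPM in PANC-1 scramble libraries. All knockdown libraries lay below all scramble libraries, but the drop was modest, at 0.43 on the log2 scale (edgeR, SE 0.0617, adjusted p = 2.9e-06). In H1299 FOSL1 was at 565, 617 and 591 CPM with shHDAC2 and 483, 428 and 428 CPM with scramble, a log2 fold change of 0.40 (edgeR, SE 0.0579, adjusted p = 4.4e-06).

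HDAC5 had the largest change of the 44 genes in PANC-1. This class IIa enzyme was at 25.6, 27.3 and 25.6 CPM in shFOSL1 libraries and 53.2, 45.0 and 45.7 CPM in PANC-1 scramble libraries. The groups were well apart, and HDAC5 fell by 0.90 on the log2 scale (edgeR, SE 0.088, adjusted p = 8.3e-09), and by 0.79 without scramble replicate 1. Of its exon bases 24.0% overlap G6PC3 on the opposite strand, and the strand setting of the counting is not given in the sources used here. The other class IIa genes did not move with it. HDAC7 rose by 0.25 (adjusted p = 0.00258) and HDAC9 by 0.28 (adjusted p = 0.0243, both edgeR), and HDAC4 had a log2 fold change of -0.12 (95% interval -0.37 to 0.12).

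Of class I, HDAC8 was lower and HDAC1, HDAC2 and HDAC3 were not called. HDAC8 was at 21.0, 19.9 and 22.9 CPM in shFOSL1 libraries and 24.1, 30.1 and 27.1 CPM in PANC-1 scramble libraries. It fell by 0.37 on the log2 scale (edgeR, SE 0.102, adjusted p = 0.00379), a call that was lost without scramble replicate 2 (log2 fold change -0.27, adjusted p = 0.0523, edgeR). HDAC1 was at 288, 287 and 296 CPM against 289, 286 and 283 CPM, HDAC2 at 231, 227 and 222 CPM against 190, 227 and 229 CPM, and HDAC3 at 92.1, 93.4 and 90.7 CPM against 89.2, 85.5 and 83.1 CPM. The groups of HDAC1 and HDAC2 overlapped, and the 95% intervals of the log2 fold change were -0.11 to 0.11 for HDAC1, -0.09 to 0.19 for HDAC2 and -0.06 to 0.21 for HDAC3. HDAC6, HDAC10 and HDAC11 were not called, at 0.10 to 0.24.

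Of the 7 sirtuins 5 rose and the other 2 were not called, and all 7 log2 fold changes were above 0. SIRT1, the nuclear sirtuin that deacetylates histones and p53, was at 52.0, 46.8 and 50.6 CPM in shFOSL1 libraries and 28.8, 34.4 and 36.0 CPM in PANC-1 scramble libraries. It had the largest rise of the 44 genes in this comparison, 0.57 on the log2 scale (edgeR, SE 0.0884, adjusted p = 9.2e-06), and its lowest knockdown library was well above its highest scramble library. SIRT7, a nucleolar sirtuin tied to ribosomal gene transcription, was at 134, 125 and 127 CPM against 96.2, 90.3 and 82.0 CPM, a log2 fold change of 0.50 (edgeR, SE 0.0686, adjusted p = 1.4e-06).

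SIRT5, a mitochondrial desuccinylase, was at 18.7, 18.7 and 21.3 CPM in shFOSL1 libraries and 14.0, 14.3 and 15.1 CPM in PANC-1 scramble libraries. Its groups did not overlap, and its log2 fold change was 0.41 (edgeR, SE 0.106, adjusted p = 0.00228). SIRT2 and SIRT3 each rose by 0.24 (adjusted p = 0.00139 and 0.00591, edgeR). SIRT4 (0.22), a mitochondrial sirtuin with few counts, and SIRT6 (0.20), a chromatin-bound one, did not pass, with 95% intervals of -0.42 to 0.86 and -0.02 to 0.42.

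In NuRD 6 of 9 subunits rose and 1 fell. GATAD2B, a p66 subunit that joins the remodeller to the methyl-CpG binding module, was at 39.5, 44.3 and 42.4 CPM in shFOSL1 libraries and 56.6, 65.0 and 62.5 CPM in PANC-1 scramble libraries. It fell by 0.57 on the log2 scale (edgeR, SE 0.0789, adjusted p = 2.0e-06), and all its knockdown libraries lay below all scramble libraries. Its paralog GATAD2A, which occupies the same place in other copies of the complex, went the other way, at 139, 125 and 130 CPM against 109, 101 and 109 CPM, a log2 fold change of 0.28 (edgeR, SE 0.0653, adjusted p = 0.000805).

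The methyl-CpG binding proteins MBD2 and MBD3 rose by 0.30 and 0.34, the scaffolds MTA1 and MTA2 by 0.21 and 0.20 and the remodelling ATPase CHD4 by 0.30 (adjusted p between 0.00205 for MBD3 and 0.0387 for CHD4, edgeR). The CHD4 call was lost with upper quartile scaling (adjusted p = 0.0527), with a filter of 10 counts in every library (0.0553) and without shFOSL1 replicate 2 (0.109) or 3 (0.136) or scramble replicate 1 (0.0586), all from edgeR. Exon bases of CHD4 overlap other genes by 53.5%, 46.9% with a single same-strand gene. MTA3 (0.07) and CHD3 (0.07) were not called. RBBP4, a histone chaperone of both NuRD and SIN3, was at 135, 143 and 144 CPM in shFOSL1 libraries and 175, 185 and 168 CPM in PANC-1 scramble libraries and fell by 0.35 (edgeR, SE 0.0619, adjusted p = 5.0e-05), whereas RBBP7 (0.04) was not called. Of the exon bases of RBBP4 22.8% overlap SYNC on the opposite strand.

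Of 10 SIN3 subunits 3 rose, 2 fell and 5 were not called. SIN3B, a scaffold, was at 91.0, 89.2 and 95.1 CPM in shFOSL1 libraries and 71.1, 65.0 and 66.1 CPM in PANC-1 scramble libraries, a log2 fold change of 0.42 (edgeR, SE 0.0683, adjusted p = 1.6e-05). The other scaffold, SIN3A, was not called at 0.11 (95% interval -0.01 to 0.23). ARID4A was at 24.2, 24.9 and 23.9 CPM against 14.6, 18.6 and 18.8 CPM, without overlap, and its log2 fold change was 0.47 (edgeR, SE 0.107, adjusted p = 0.000752). ING1 was at 14.6, 13.2 and 15.8 CPM against 22.1, 22.5 and 17.9 CPM, with its lowest scramble library above its highest knockdown library, and fell by 0.54 (edgeR, SE 0.114, adjusted p = 0.000362). ING2, its paralog in the same complex, was higher, at 0.38 (adjusted p = 0.0134, edgeR). SUDS3, which promotes the deacetylase activity of SIN3, was at 70.6, 75.2 and 76.4 CPM against 94.4, 100.5 and 100.7 CPM and fell by 0.43 (edgeR, SE 0.0672, adjusted p = 8.7e-06).

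In CoREST, the complex that pairs a deacetylase with the histone demethylase KDM1A, RCOR3 and RCOR2 rose and KDM1A fell. RCOR3 was at 42.2, 40.0 and 46.8 CPM in shFOSL1 libraries and 24.3, 29.1 and 33.9 CPM in PANC-1 scramble libraries, where the 3 libraries spread widely but stayed below the knockdown ones. Its log2 fold change was 0.54 (edgeR, SE 0.101, adjusted p = 9.2e-05). RCOR2 had 0.31 (adjusted p = 0.0194, edgeR), and KDM1A fell by 0.23 (adjusted p = 0.00151, edgeR). RCOR1, the most abundant of the 3 CoREST scaffolds per length, and NCOR1 were both at -0.04 and not called.

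Of the 25 genes called in FOSL1 knockdown, 19 were called under all 15 alternatives. The other 6 were CHD4 and HDAC8, given above with the libraries that decide them, and HDAC9, ING2, MTA2 and RCOR2, whose calls were lost without shFOSL1 replicate 1 for HDAC9, ING2 and RCOR2, without shFOSL1 replicate 2 for HDAC9, without shFOSL1 replicate 3 for MTA2 and without scramble replicate 2 for RCOR2.

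**Figure D2:**
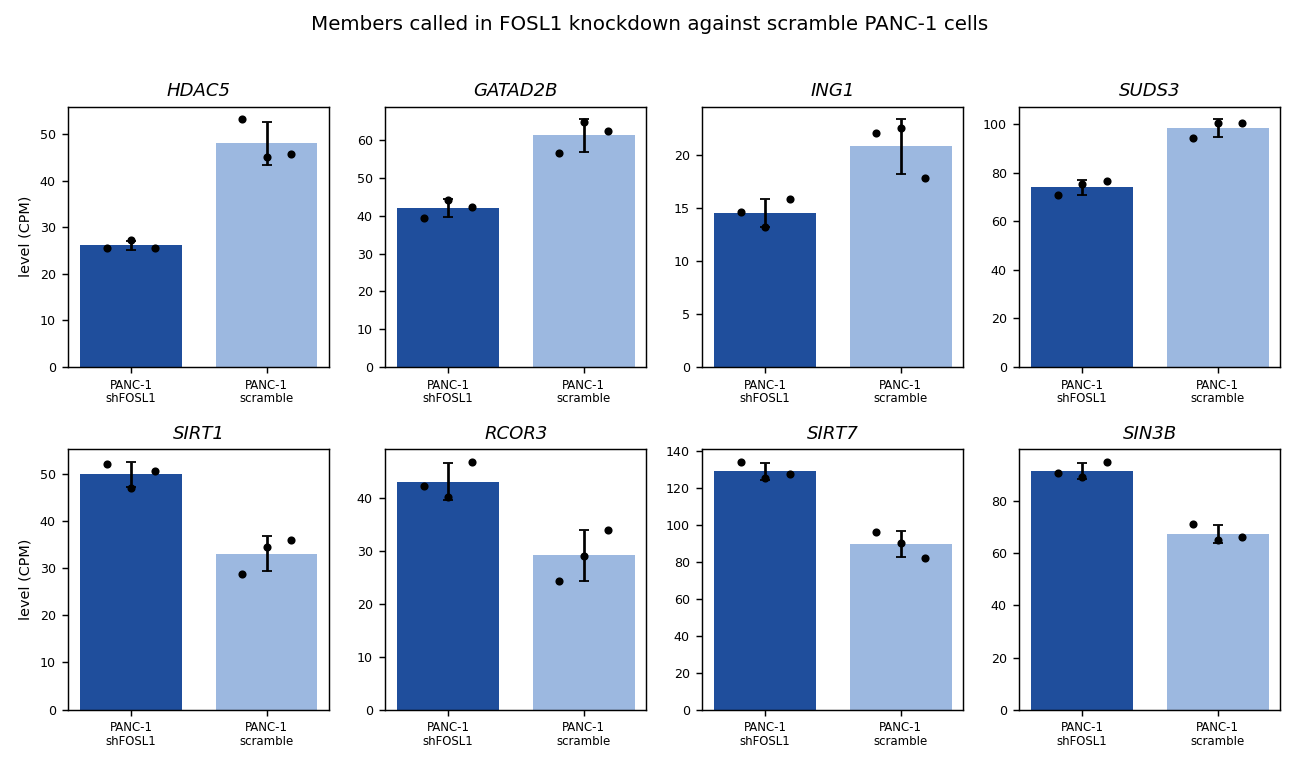
Levels in CPM (y axes, starting at 0) of 4 genes that fell (upper row) and 4 that rose (lower row) in shFOSL1 against scramble PANC-1 libraries, where points are libraries, bars are means and error bars are SD (n = 3). The genes were chosen among called genes whose groups do not overlap, so the gap in each panel is part of the choice. HDAC5 is at 25.6 to 27.3 CPM against 45.0 to 53.2 CPM.

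The NCOR1 promoter is shown because FOSL1 is an AP-1 subunit and NCOR1 was the only gene to hold the AP-1 motif TGACTCA among the 40 of the 44 genes that had a promoter in the RefSeq table. The motif was read on both strands, as TGACTCA or TGAGTCA, and its share is 2.5%, against 4.92% of all 27305 promoters. The window runs 5′ to 3′ from 250 bases before to 50 after the RefSeq start, at chr17:16215485-16215784 on the minus strand of GRCh38.p14, and capitals mark the motif.
NCOR1: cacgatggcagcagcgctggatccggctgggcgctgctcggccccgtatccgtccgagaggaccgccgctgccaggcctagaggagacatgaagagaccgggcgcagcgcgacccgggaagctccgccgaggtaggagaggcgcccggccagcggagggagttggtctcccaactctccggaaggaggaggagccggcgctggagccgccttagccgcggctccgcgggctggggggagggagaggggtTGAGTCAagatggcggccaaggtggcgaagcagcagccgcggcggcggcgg
NCOR1, with the motif, had a log2 fold change of -0.04 (95% interval -0.20 to 0.11) in FOSL1 knockdown. A match says that these letters are in the window and is not a measured binding site, and a window of this length leaves out distal elements.

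Promoters of SIRT1, SIRT3 and SIRT5 are shown because these 3 genes rose in FOSL1 knockdown, as did SIRT2 and SIRT7, and their windows hold the GC box. The windows are chr10:67884406-67884705 on the plus strand for SIRT1, chr11:236882-237181 on the minus strand for SIRT3 and chr6:13574351-13574650 on the plus strand for SIRT5. Capitals mark the GC box GGGCGG, read on both strands as GGGCGG or CCGCCC.
SIRT1: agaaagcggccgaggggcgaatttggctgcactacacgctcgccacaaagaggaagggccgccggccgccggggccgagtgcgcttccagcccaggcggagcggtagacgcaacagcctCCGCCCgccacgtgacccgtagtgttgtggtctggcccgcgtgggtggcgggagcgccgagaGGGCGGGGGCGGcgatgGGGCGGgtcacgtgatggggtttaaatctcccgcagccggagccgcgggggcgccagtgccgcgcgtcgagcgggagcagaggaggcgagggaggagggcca
SIRT3: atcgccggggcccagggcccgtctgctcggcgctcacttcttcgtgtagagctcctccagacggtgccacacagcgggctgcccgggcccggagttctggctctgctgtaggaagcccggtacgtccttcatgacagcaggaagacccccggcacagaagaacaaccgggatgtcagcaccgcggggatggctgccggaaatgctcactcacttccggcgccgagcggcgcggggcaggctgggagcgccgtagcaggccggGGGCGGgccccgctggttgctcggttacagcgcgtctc
SIRT5: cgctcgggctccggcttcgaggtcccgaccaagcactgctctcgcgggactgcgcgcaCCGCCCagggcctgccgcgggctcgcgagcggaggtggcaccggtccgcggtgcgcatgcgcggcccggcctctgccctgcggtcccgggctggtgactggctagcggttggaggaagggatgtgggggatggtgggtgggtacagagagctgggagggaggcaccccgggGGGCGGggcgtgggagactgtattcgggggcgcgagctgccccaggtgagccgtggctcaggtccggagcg
The 3 were chosen for the GC box, which 29 of the 40 promoters (72.5%) hold, against 44.6% of all 27305 promoters. The window of SIRT2, which rose, holds none in these letters, nor does that of SIRT4, which was not called, and that of SIRT6, also not called, holds it. The promoter of SIRT7 was not analysed here. The E-box CACGTG, which reads the same on both strands, is in the windows of SIRT1 and RBBP4 and in 7.43% of all promoters, and the CCAAT box, read as CCAAT or ATTGG, is in 16 of the 40 (40%) and in 35.7% of all. These shares describe the windows and were not compared between genes that rose and genes that fell.

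**Figure D3:**
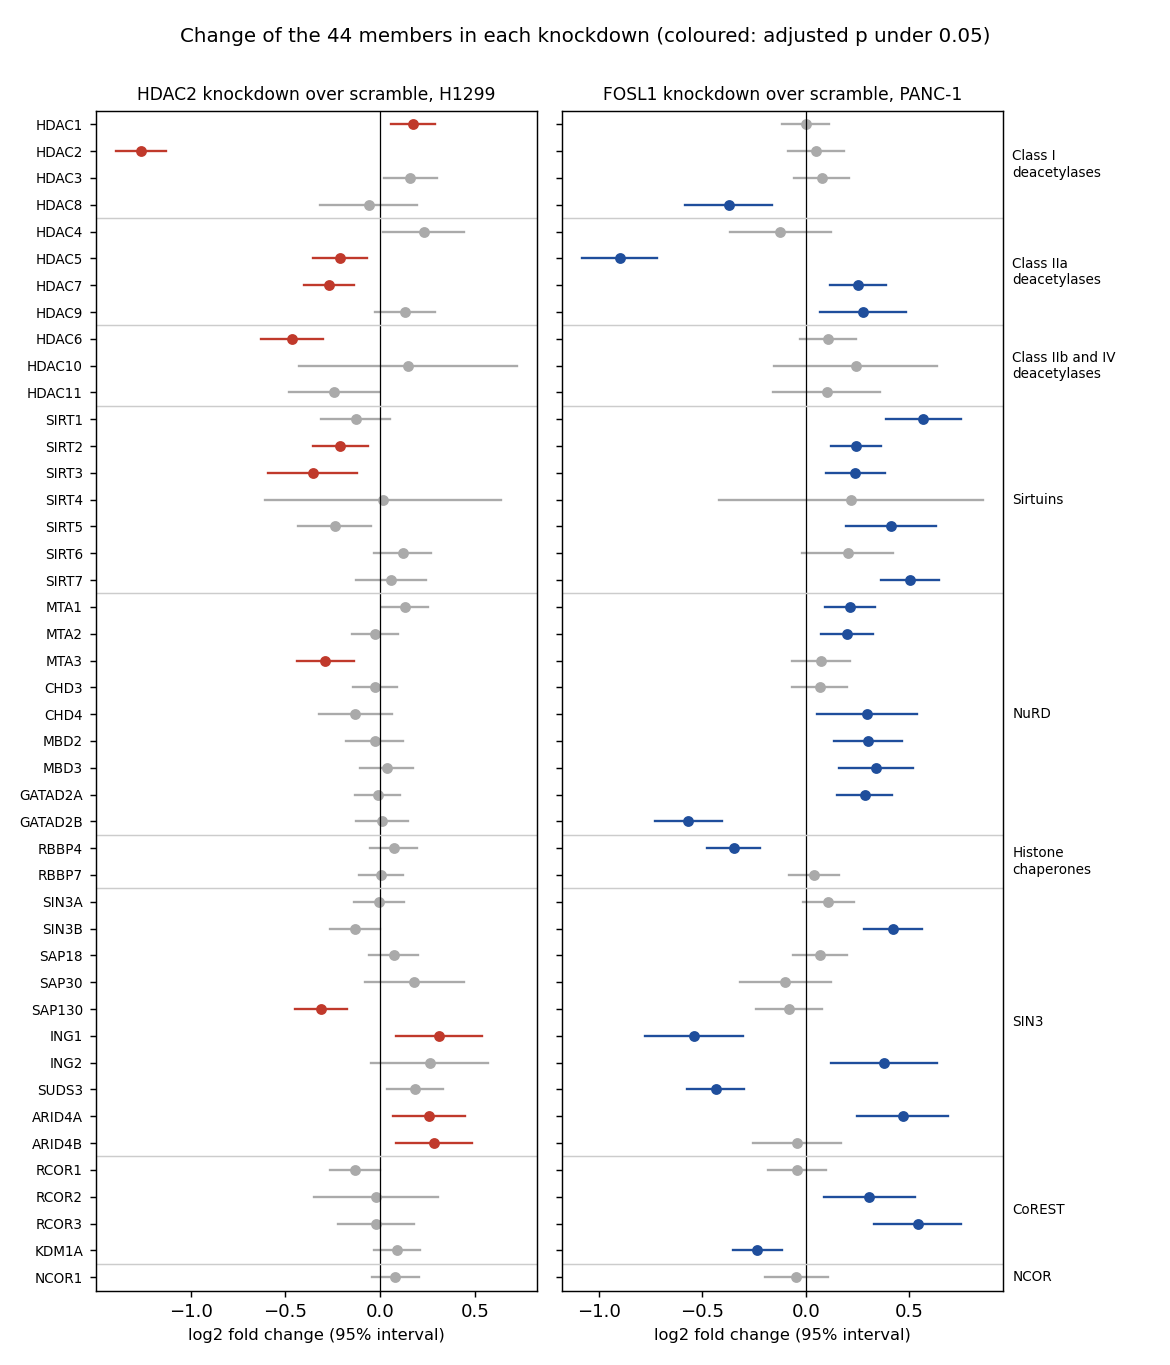
Log2 fold change of the 44 genes (x axes) with its 95% interval in HDAC2 knockdown over scramble H1299 cells (left, red where called) and FOSL1 knockdown over scramble PANC-1 cells (right, blue where called), grouped by role, with grey for genes not called. HDAC2 stands alone at -1.26 on the left, and the sirtuins on the right are all above 0, from 0.20 to 0.57.

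Whether the genes moved differently in the knockdowns was tested as the difference of both effects, HDAC2 knockdown in H1299 minus FOSL1 knockdown in PANC-1, over all 12 libraries. Target and cell line differ together here and cannot be told apart. The difference was called higher for 6 genes and lower for 16, and not called for 22. Over all 18505 genes tested edgeR called 15.5% higher and 18.3% lower, and over these 44 genes 13.6% and 36.4%. HDAC2 had the largest difference, -1.33 on the log2 scale (edgeR, SE 0.0973, adjusted p = 3.7e-12).

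Of the sirtuins 5 of 7 had a called difference, all of them lower in the HDAC2 knockdown relative to the FOSL1 knockdown. SIRT1 differed by -0.72 (edgeR, SE 0.13, adjusted p = 6.0e-05), with effects of -0.13 in HDAC2 knockdown and 0.57 in FOSL1 knockdown. SIRT5 differed by -0.67, SIRT3 by -0.62, SIRT2 by -0.47 and SIRT7 by -0.47. SIRT2, SIRT3 and HDAC7 were each called lower in HDAC2 knockdown and higher in FOSL1 knockdown. The H1299 calls of SIRT2 and SIRT3 were each lost under 5 of 15 alternatives. In the opposite direction, ING1 was higher in HDAC2 knockdown and lower in FOSL1 knockdown, a difference of 0.83 (edgeR, SE 0.159, adjusted p = 1.2e-04). The H1299 call of ING1 was lost under 9 of 15 alternatives.

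The other 5 called higher were HDAC5 (0.67), SUDS3 (0.60), GATAD2B (0.56), RBBP4 (0.40) and KDM1A (0.30), each of which fell in FOSL1 knockdown. HDAC5 fell in both knockdowns, and more in FOSL1 knockdown, but its H1299 call was lost under 6 of 15 alternatives. ARID4A was called higher in both, with the limits on its H1299 call given above, and the difference of -0.23 (95% interval -0.52 to 0.06) was not called. NuRD had 6 of 9 subunits with a lower difference, from -0.25 for MTA2 to -0.45 for CHD4. Of these, the calls of MBD3 and MTA2 were lost with RLE or upper quartile scaling and without any 1 of the 3 shHDAC2 libraries, among other settings. CHD4 lost its call without shHDAC2 replicate 3, H1299 scramble replicate 1 or shFOSL1 replicate 2 or 3, and MBD2 without shHDAC2 replicate 1 or 2, shFOSL1 replicate 3 or PANC-1 scramble replicate 3, whereas the other 18 differences were called under all 20.

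Cell lines were also compared without a knockdown, PANC-1 scramble over H1299 scramble, since the 2 lines set the levels on which each knockdown acts. Line and anything else that differed in handling cannot be told apart. edgeR called 22 of the 44 genes higher and 16 lower in PANC-1, that is 50% and 36.4%, against 37.4% and 39.5% of all 17619 genes tested. Without PANC-1 scramble replicate 1 the counts were 23 and 16, and without H1299 scramble replicate 1 they were 21 and 15.

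The largest differences were in sirtuins. SIRT3 was at 69.9, 62.7 and 66.7 CPM in PANC-1 scramble libraries and 15.3, 15.7 and 12.4 CPM in H1299 scramble libraries, a log2 fold change of 2.19 (edgeR, SE 0.104, adjusted p = 1.0e-13), or 4.56-fold. SIRT2 was at 248, 240.0 and 225 CPM against 70.2, 60.6 and 63.9 CPM, 3.64-fold (SE 0.0805 on the log2 scale, adjusted p = 2.0e-14, edgeR). SIRT7 was at 96.2, 90.3 and 82.0 CPM against 35.4, 31.6 and 25.7 CPM, 2.88-fold higher. SIRT6 went the other way, at 19.2, 16.6 and 21.6 CPM against 42.7, 40.7 and 44.9 CPM, and fell by 1.17 on the log2 scale. None of these groups overlapped, and SIRT6 had the highest adjusted p of the 4 (3.0e-09, edgeR).

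All 4 class I genes were higher in PANC-1. HDAC8 was at 24.1, 30.1 and 27.1 CPM in PANC-1 scramble libraries and 9.07, 11.9 and 12.2 CPM in H1299 scramble libraries, a log2 fold change of 1.28, while those of HDAC1, HDAC3 and HDAC2 were 0.46, 0.36 and 0.26. HDAC6 was at 115, 108 and 102 CPM against 52.2, 41.7 and 51.0 CPM, with a log2 fold change of 1.16. RCOR2, a CoREST scaffold best known from neural and stem cells, was at 18.4, 14.7 and 16.5 CPM against 4.70, 6.37 and 6.53 CPM, a log2 fold change of 1.48. None of these groups overlapped, but those of HDAC2 nearly met, at 190 CPM in PANC-1 scramble replicate 1 and 187 CPM in H1299 scramble replicate 3. The adjusted p was 0.00651 for HDAC2 and lower for the other 5 (edgeR).

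Over all genes tested 37.4% were higher in PANC-1 and 39.5% lower. Of 10 SIN3 subunits 7 were higher and 2 lower. NuRD leaned the other way, with 1 of 9 subunits higher in PANC-1 and 5 lower. Its ATPase CHD3 was at 152, 144 and 131 CPM in PANC-1 scramble libraries and 317, 319 and 290 CPM in H1299 scramble libraries, and CHD4 at 10.8, 12.8 and 12.3 CPM against 31.1, 26.5 and 25.4 CPM. Their log2 fold changes were -1.13 and -1.22 (adjusted p = 4.5e-11 and 7.7e-09, edgeR), with the overlap of CHD4 exons given above. GATAD2A was at 109, 101 and 109 CPM against 168, 152 and 154 CPM (-0.58). NCOR1 was at 91.4, 113 and 108 CPM against 178, 203 and 189 CPM (-0.87), and HDAC7 at 85.8, 81.5 and 78.3 CPM against 159, 137 and 134 CPM (-0.82), both without overlap. HDAC11 and RCOR3 were called although their groups overlapped, and both calls were lost without H1299 scramble replicate 1 or PANC-1 scramble replicate 3.

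Between genes, levels are given per length, as RPKM over the length of the annotated canonical transcript, and their order depends on that choice. The canonical transcript of HDAC1 has 2118 bases and all its annotated exons span 3966. For SIRT2 these lengths are 1862 and 6206 bases, so the closeness of these 2 genes below holds for the canonical length only. Which transcripts these cells make was not tested. In PANC-1 scramble cells HDAC1 (135 ± 1.6 RPKM) and SIRT2 (128 ± 6.4 RPKM) came first, with a gap little over the SD of SIRT2, followed by RBBP7 (82.0 ± 1.5 RPKM) and MTA1 (79.7 ± 4.4 RPKM), which did not differ beyond their spread (SD, n = 3 each). In H1299 scramble cells HDAC1 (97.6 ± 3.8 RPKM) and RBBP7 (96.3 ± 1.8 RPKM) were within their spread of each other and MTA1 (82.2 ± 6.5 RPKM) followed. HDAC2 was at 22.1 ± 2.3 RPKM in PANC-1 scramble cells and 18.3 ± 0.81 RPKM in H1299 scramble cells, and at 7.67 ± 0.56 RPKM with shHDAC2. SIRT4 and HDAC10 were lowest in both lines, at 1.18 ± 0.24 and 1.69 ± 0.49 RPKM in PANC-1 scramble cells and 1.27 ± 0.48 and 0.793 ± 0.20 RPKM in H1299 scramble cells. The level of HDAC10 is uncertain, since 55.8% of its exon bases overlap MAPK12 on the same strand.

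**Figure D4:**
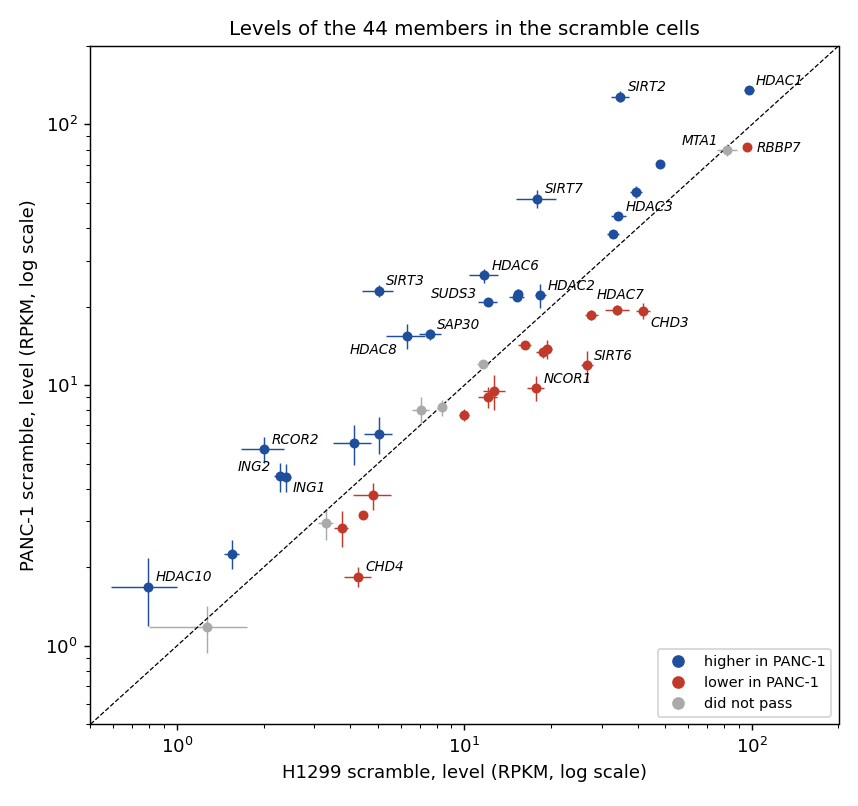
Mean level of each of the 44 genes in PANC-1 scramble cells (y axis) and H1299 scramble cells (x axis), in RPKM on log scales, with SD as error bars (n = 3) and the dashed line where both are equal. SIRT3, SIRT2, SIRT7 and RCOR2 lie far above the line, and CHD4, SIRT6 and CHD3 below it.

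Genes that work with these enzymes were followed in 12 further lists, each described by its counts beside those of all genes given above. Calls in these lists are from the main edgeR fit alone. They were not tested under the alternatives or without scramble replicate 1, so whether the small ones rest on single libraries is not known. Of 9 other NuRD subunits and associated factors, such as SALL4, 2 fell and the rest were not called in HDAC2 knockdown. In FOSL1 knockdown 5 rose and 1 fell. PWWP2B, which binds a NuRD variant, was lower in H1299 and higher in PANC-1, at 14.0 CPM against 18.9 CPM in H1299 (log2 fold change -0.44), shHDAC2 against scramble, and at 116 CPM against 62.0 CPM in PANC-1 (0.88), shFOSL1 against scramble. ZNF687 (0.62) and ZMYND8 (0.54), which form a module with each other, rose in FOSL1 knockdown, and SALL4 fell in both, at -0.49 in HDAC2 knockdown and -0.37 in FOSL1 knockdown.

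Of the other SIN3 subunits and associated factors 1 rose and 2 fell of 12 in HDAC2 knockdown. BRMS1L was at 0.40, SAP30L at -0.66 and FOXK1 at -0.38. In FOSL1 knockdown 4 rose and 3 fell of 12. SINHCAF was at 46.4 CPM in shFOSL1 cells against 97.6 CPM in scramble cells (-1.10) and EMSY at 33.8 CPM against 56.5 CPM (-0.76), while BRMS1 (0.59) and PHF12 (0.50) rose. Of the other CoREST subunits and associated factors 1 rose and 3 fell of 9 in HDAC2 knockdown, and 2 rose and 4 fell in FOSL1 knockdown. GSE1, a partner of CoREST, was at 118 CPM against 177 CPM in H1299 (-0.59) and 186 CPM against 128 CPM in PANC-1 (0.51).

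Of 5 further subunits of NCOR complexes 1 rose and 2 fell in HDAC2 knockdown, and 3 rose and 1 fell in FOSL1 knockdown. CORO2A was at 1.97 CPM in shFOSL1 cells against 7.88 CPM in PANC-1 scramble cells (-2.02). GPS2 was at 0.93 in HDAC2 knockdown and 1.20 in FOSL1 knockdown, but 52.5% of its exon bases overlap other genes. Of 8 genes of the MiDAC, MIER and RERE complexes 1 was called in HDAC2 knockdown, DNTTIP1 (-0.46), a subunit of the mitotic deacetylase complex. In FOSL1 knockdown 3 rose, among them ATN1 (0.41), and 1 fell.

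Histone acetyltransferases, which work against deacetylases, had 1 of 12 genes called in HDAC2 knockdown, HAT1 (0.34). In FOSL1 knockdown 5 rose and 3 fell. EP300, which encodes p300, was at 91.2 CPM in shFOSL1 cells against 58.0 CPM in scramble cells (0.63), and its partner gene CREBBP at 150 CPM against 109 CPM (0.43), while NCOA3 (-0.37) and KAT2A (-0.32) fell. Bromodomain genes, whose products read acetylated lysine, had 3 higher and 1 lower of 8 in HDAC2 knockdown, with ATAD2 at 0.35 and BRD9 at 0.29, and 3 higher and 4 lower in FOSL1 knockdown, with BRPF1 at 0.31 and BRD3 at -0.27. Class IIa partners are the MEF2 factors that class IIa enzymes bind, and the 14-3-3 proteins and kinases that hold these enzymes in the cytoplasm. Of this list 6 of 13 were higher and the other 7 not called in HDAC2 knockdown, with CAMK4 (0.43), YWHAQ (0.36) and MEF2C (0.24). In FOSL1 knockdown 5 rose, among them MEF2C (0.69), and 3 fell, among them YWHAE (-0.26), of 13.

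Genes commonly raised by class I deacetylase inhibitors mostly were not called or fell. In HDAC2 knockdown 5 of 12 fell and the other 7 were not called, with a median log2 fold change of -0.12. H1F0, the linker histone gene H1.0, was at 56.3 CPM in shHDAC2 cells against 104 CPM in H1299 scramble cells (-0.89), and CDKN1C at 1.17 CPM against 2.74 CPM (-1.24). In FOSL1 knockdown 3 rose, GADD45A (0.60), KLF6 (0.37) and GSN (0.28), and 10 fell of 13, with a median of -1.25. TXNIP was at 11.9 CPM in shFOSL1 cells against 197 CPM in PANC-1 scramble cells, and SAT1 at 261 CPM against 981 CPM (-1.93).

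The list of NAD genes holds genes that make NAD and others, such as PARP1, that consume it. Of this list 1 of 10 was called, and lower, in HDAC2 knockdown. In FOSL1 knockdown 2 rose and 4 fell of 8, with makers and consumers counted together. NMRK1, a nicotinamide riboside kinase, was at 18.1 CPM in shFOSL1 cells against 7.66 CPM in scramble cells (1.22). NADSYN1, another maker of NAD, was at 0.29. PARP1, a large consumer of NAD, was at 261 CPM against 384 CPM (-0.58). Makers also fell, from low levels. NMNAT2 was at 0.385 CPM against 1.45 CPM (-1.91) and NMNAT3 at 0.939 CPM against 1.71 CPM (-0.89). Of 16 Polycomb, H3K9 repressor and DNA methyltransferase genes 3 rose and 1 fell in HDAC2 knockdown. EED was at 0.28, EZH2 at 0.27 and SUZ12 at -0.29. In FOSL1 knockdown 2 rose and 5 fell, with the DNA methyltransferase gene DNMT3B at -0.95, JARID2 at -0.87 and CBX5 at -0.44. Of the repressors that recruit these complexes 2 rose and 2 fell of 15 in HDAC2 knockdown, and 5 rose and 6 fell of 13 in FOSL1 knockdown. REST, which recruits CoREST and SIN3 to neuronal genes, was higher in both, at 0.33 in HDAC2 knockdown and 0.74 in FOSL1 knockdown, and MXD1, which recruits SIN3, was at 11.6 CPM in shFOSL1 cells against 28.7 CPM in scramble cells (-1.33).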

How the data were processed

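RNA was measured by paired-end RNA-seq in 12 libraries. The authors trimmed reads with cutadapt, checked them with FastQC, aligned them to GRCh38 with STAR 2.7.2b and counted reads per gene with featureCounts 2.0.1, and deposited raw counts per gene in a single table. These tools and builds are from the submitters' processing notes, and the annotation release and strand setting are not given in the sources used here. All its sample columns were matched to labels.

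Counts were fitted with edgeR 4.0.16 in R 4.3.3 (TMM scaling, filterByExpr, quasi-likelihood test), with the libraries of each comparison alone and those of all groups for the difference of effects, and p-values were adjusted over all genes tested. CPM levels use TMM factors over all 12 libraries, so folds from the fits can differ slightly from ratios of CPM. RPKM uses the canonical transcript length of GENCODE 44, which holds 60295 of the 60623 gene IDs. Alternatives were DESeq2 1.42.0, limma-voom (limma 3.58.1), RLE and upper quartile scaling, other filters (no filter beyond 1 count, at least 10 counts in every library), a single fit of all libraries, leaving out mitochondrially encoded and the 20 most abundant genes, stricter thresholds, a replicate block and each library left out in turn. The fitting code was tested on simulated data.

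The 44 genes and the 12 lists (134 genes) were chosen with earlier results of these data known. Named in full were HDAC1, HDAC2, HDAC3, HDAC8 and, in each comparison, up to 6 called genes with the largest rises and falls whose group means reached 1 CPM and whose groups did not overlap, and from each list up to 3 called genes in each direction, of which some are not reported here. The values of GATAD2A in FOSL1 knockdown were added after they were seen. Promoters and their coordinates are from RefSeq. With 3 libraries a group an exact permutation test cannot go below p = 0.1, so it was not used.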

Additional observations from a re-analysis of the deposited data

Results flagged for a closer look

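For 22 of the 44 genes the effects of the knockdowns differed, by edgeR's test of the difference itself over all 12 libraries. Each value below is the log2 effect of HDAC2 knockdown in H1299 minus that of FOSL1 knockdown in PANC-1, and target and line cannot be told apart. Among deacetylases these were HDAC2 (-1.33), HDAC5 (0.67), HDAC6 (-0.59) and HDAC7 (-0.54). The sirtuins were SIRT1 (-0.72), SIRT2 (-0.47), SIRT3 (-0.62), SIRT5 (-0.67) and SIRT7 (-0.47).

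In NuRD the difference was -0.25 for MTA2, -0.38 for MTA3, -0.45 for CHD4, -0.35 for MBD2, -0.33 for MBD3, -0.32 for GATAD2A and 0.56 for GATAD2B, and it was 0.40 for the chaperone RBBP4. In SIN3 it was -0.57 for SIN3B, 0.83 for ING1 and 0.60 for SUDS3. In CoREST it was -0.58 for RCOR3 and 0.30 for KDM1A.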

How the results depend on the processing

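The count of genes called higher in HDAC2 knockdown was the least stable: against 4, it was 1 with DESeq2, 1 with upper quartile scaling, 2 with no filter beyond 1 count, 1 with all 12 libraries in a single fit, and 0 in edgeR both at an adjusted p under 0.01 and with a log2 fold change over 0.5. The count called lower (8) was 5 at an adjusted p under 0.01 and 1 with the fold threshold. With that fold threshold the FOSL1 knockdown counts were 3 higher and 3 lower, the PANC-1 over H1299 count of lower genes was 7, and that of lower differences between the knockdowns was 8. Leaving out a library gave 0 to 4 higher and 4 to 8 lower in HDAC2 knockdown, 15 to 23 higher and 6 to 7 lower in FOSL1 knockdown, 21 to 23 higher and 14 to 16 lower between lines, and 6 to 8 higher and 12 to 17 lower for the difference. No log2 fold change of a called gene turned sign under these alternatives. The cause of each shift was not tested, beyond the stricter thresholds and fewer libraries that define them. HDAC10 and SIRT4, with few counts, have wide intervals, and small changes in them were not detectable at this depth.

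Replicate numbers did not pair the libraries: deviations of same-numbered libraries correlated at -0.02, -0.12 and 0.14 in H1299 and 0.07, 0.07 and -0.02 in PANC-1. With the replicate block the counts were 4 higher and 8 lower in HDAC2 knockdown, 18 and 7 in FOSL1 knockdown, 23 and 16 between lines, and 6 and 17 for the difference.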
